A study of Rattus norvegicus with 16 samples.

Results

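The comparison described here set the rat retina at Zeitgeber time (ZT) 12 against the rat retina at ZT6. Its members were the 6 arrays whose titles give retina at either hour, 3 at ZT6 and 3 at ZT12, out of 16 arrays of retina and pineal gland in the series. Each array measured total RNA from Rattus norvegicus with 8799 Affymetrix probe sets, of which 8740 are not controls. Zeitgeber time conventionally counts hours from lights on, so that ZT6 is the middle and ZT12 the end of a standard light phase. Per the labels both groups differ in the hour alone, and no strain, age, genotype, lighting or treatment is named. Whether the numbered arrays came from separate animals is not stated, so p-values here reflect array-to-array spread, which may be technical. In both groups, arrays 1 and 2 have the source label "eye, retina" and array 3 has "brain, retina".

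The retina contains its own circadian clock, and many of its functions follow the time of day. Immediate early genes encode transcription factors and signalling proteins whose transcripts appear within minutes of light, neuronal activity or growth factor signals and decay quickly. The amino acid response, a branch of the integrated stress response, is a second inducible set. In it, the transcription factor ATF4 raises amino acid transporters, aminoacyl-tRNA synthetases and asparagine synthetase. Photoreceptor, dopamine and melatonin genes of the retina are known for daily rhythms in several species.

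Levels are given as log2 of the quantile-normalized intensity plus 16, so a difference of 1 is a 2-fold change. The tissue check showed high levels of rod photoreceptor genes on every array. Prph2, which shapes the rod outer segment disc, lay between 16.37 and 16.80, and Pdc, the photoreceptor phosducin, between 16.03 and 16.45. The mean of 14 rod genes was 14.03, 14.26 and 14.09 on ZT6 arrays 1 to 3 and 13.73, 13.86 and 13.87 on ZT12 arrays 1 to 3. Lens crystallins were also present, and unevenly so. The mean of 13 lens genes was 14.45, 11.34 and 14.51 at ZT6 and 15.72, 13.98 and 14.10 at ZT12, with ZT6 array 2 far below the other arrays. The mean of 6 blood genes was 11.47, 11.75 and 11.80 at ZT6 and 11.48, 10.98 and 11.20 at ZT12. The 6 arrays otherwise resembled each other, with median intensities of 747.7 to 804.6 and pairwise Spearman correlations of 0.944 to 0.966 over probe sets.

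At ZT12, 87 of 5244 tested probe sets passed limma's test at a Benjamini-Hochberg adjusted p under 0.05, which is 1.66%. Of these, 45 were higher at ZT12 (0.858% of those tested) and 42 were lower (0.801%). With each array scaled to a common median in place of quantile normalization, the split was 55 higher and 32 lower, a share of 63.2% higher against 51.7%. The passed probe sets covered 66 of 3156 named genes, 33 in each direction, and 7 further passed probe sets carried no single gene symbol. The difference was at least 2-fold for 50 of them, 30 higher and 20 lower, and the smallest was 0.58 on the log2 scale. For 15 of the 87, the mean of 1 hour lay under 8.90, the limit of the filter on the mean over the 6 arrays, so that they entered the test through the other hour. Of all tested probe sets, 2.5% differed at least 2-fold (1.75% higher, 0.744% lower) and 18.6% had an unadjusted p under 0.05. For comparison, the median absolute difference over all tested probe sets was 0.199, and the median SD within a group was 0.181 at ZT6 and 0.171 at ZT12. The arrays of both hours did not overlap for any of the 87, but this also held for 25.5% of all tested probe sets (10.4% higher, 15.1% lower). Leaving out ZT6 array 1, 2 or 3 left 46, 32 and 22 passed probe sets, and leaving out ZT12 array 1, 2 or 3 left 32, 20 and 28. Without both arrays numbered 3, which carry the other source label, 4 passed.

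**Figure D1:**
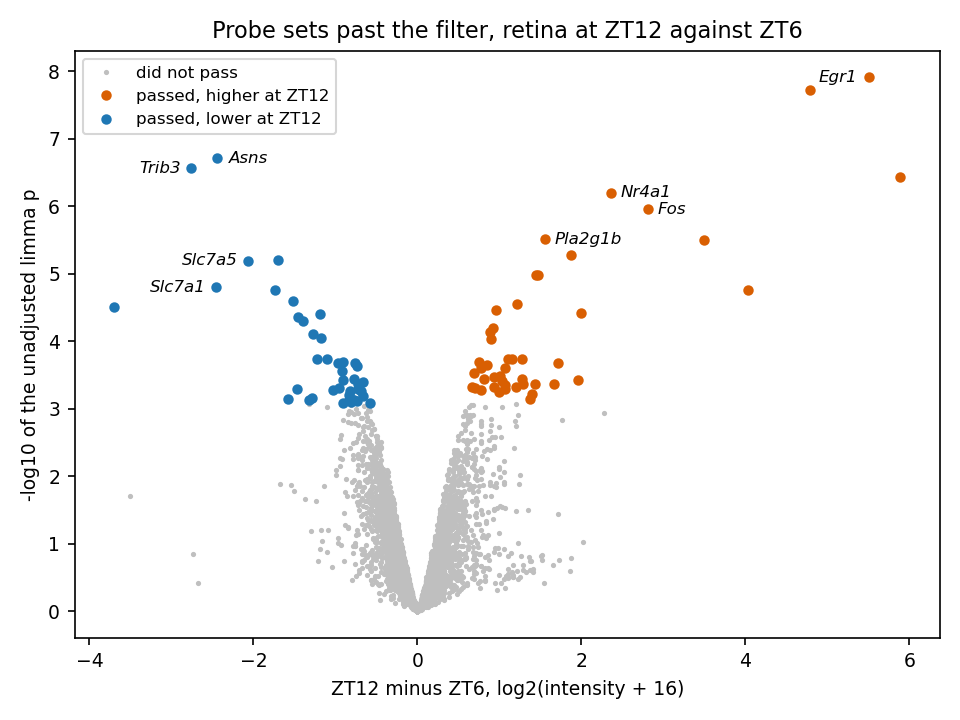
Each point is 1 of 5244 probe sets, with the ZT12 minus ZT6 difference in log2(intensity + 16) on the x axis and -log10 of the unadjusted limma p on the y axis. The 45 probe sets that passed and were higher at ZT12 are orange and the 42 that were lower are blue, with Egr1 at 5.51 farthest to the right among the labelled genes and Trib3 at -2.76 farthest to the left.

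Immediate early genes held the largest increases. Of 27 measured genes of this list, 8 passed as higher at ZT12 and 1 as lower, against 2.09% of all named genes in both directions. The 8 were Egr1, Fos, Nr4a1, Junb, Dusp1, Gadd45a, Cebpd and Nptx2, and the lower one was Atf3. Most of the others did not move in step with them, and the median over the list's brightest probe sets was 0.06, against -0.03 over all genes. The list and its members were chosen with earlier results of these data known, so its count is a description.

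Egr1 encodes a zinc finger transcription factor that is a standard marker of neuronal activation. It read 10.97, 11.11 and 11.36 at ZT6 and 16.41, 16.93 and 16.62 at ZT12. All ZT12 arrays lay far above all ZT6 arrays, with an SD of 0.20 within ZT6 and 0.26 within ZT12. The difference was 5.51 ± 0.17 (SE, n = 3 and 3), a 45.4-fold increase with a 95% interval of 34.1 to 60.6 (limma, adjusted p = 5e-05). All 4 Egr1 probe sets passed, and the other 3 gave 5.89, 4.03 and 1.71. The size of the increase therefore depended on the probe set, while its direction did not. A probe set without a single gene symbol, U75397UTR#1_s_at, had the same profile, at 8.97, 9.17 and 9.28 against 13.65, 14.07 and 14.08.

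Fos, a subunit of the AP-1 transcription factor, read 10.17, 9.80 and 9.80 at ZT6 and 12.45, 12.90 and 12.85 at ZT12. Its difference was 2.81 ± 0.17, or 7.0-fold (5.25 to 9.32, limma adjusted p = 0.000838), and its other probe sets gave 3.49 and 1.87, so that all 3 passed. The probe set at 3.49 had a ZT6 mean of 7.89, under the filter's limit, and entered the test through its ZT12 level. Nr4a1, an orphan nuclear receptor induced with Egr1 and Fos in many cells, read 9.91, 10.16 and 9.78 at ZT6 and 12.31, 12.24 and 12.37 at ZT12. The ZT12 arrays were all high and close together (SD 0.06, against 0.20 at ZT6). Its difference was 2.36 ± 0.13, or 5.12-fold (4.11 to 6.39, limma adjusted p = 0.000556), and both of its probe sets passed. Junb, another AP-1 subunit, read 10.02, 10.65 and 10.03 at ZT6 and 11.25, 11.87 and 11.68 at ZT12, a difference of 1.37 ± 0.24 (limma adjusted p = 0.0475). Its second probe set gave 1.76 and missed the threshold with an adjusted p of 0.0619.

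Among the other AP-1 and early response transcripts, increases were not general. Jun did not pass with any of its 3 probe sets, which gave -0.88, -0.62 and 0.04. Klf10 and Homer1 gave 1.05 (adjusted p = 0.133) and 0.70 (adjusted p = 0.113), and neither passed. Klf4 gave -1.14 with an adjusted p of 0.158. Arc, the synaptic immediate early gene, read 9.73, 10.21 and 10.55 at ZT6 and 10.06, 10.11 and 10.32 at ZT12. Its groups overlapped, with a difference that rounds to 0.00 ± 0.22. Egr4, Sgk1, Vgf and Zfp36 likewise gave values between -0.07 and 0.17. These do not show that the genes were unchanged, since most of their standard errors were near 0.2.

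Genes that restrain MAP kinase signalling were among those that rose. Of 17 measured genes of the MAP kinase list, 3 passed as higher and 0 as lower, against 2.09% of all named genes in both directions. Dusp1, a phosphatase that inactivates MAP kinases and is itself an early gene, read 10.02, 10.33 and 10.08 at ZT6 and 11.52, 11.64 and 11.58 at ZT12. The difference was 1.44 ± 0.13 (limma adjusted p = 0.00391), and its other probe sets gave 1.22, which passed, and 1.19, which did not. Dusp5, an ERK-specific phosphatase of the nucleus, read 11.09, 11.45 and 11.49 at ZT6 and 12.12, 12.41 and 12.51 at ZT12, a difference of 1.00 ± 0.17. Mapk7, which encodes the kinase ERK5, gave 1.40 ± 0.23, with a second probe set at 0.79. Its ZT6 mean of 8.44 lay under the filter's limit of 8.90, so it entered the test through its ZT12 level of 9.84. Dusp6, a cytoplasmic ERK phosphatase, gave 0.25 ± 0.22 and overlapped between the hours. The upstream kinases Map2k1 and Map2k2 gave 0.49 and -0.58 and did not pass, with adjusted p of 0.0823 and 0.0548.

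Of 23 measured genes of the cell cycle and growth arrest list, 2 passed as higher (Gadd45a and Cdkn1a) and 1 as lower (Ddit3, described with the amino acid genes), against 2.09% of all named genes. Gadd45a, a stress-inducible gene, read 10.37, 10.35 and 10.33 at ZT6 and 11.32, 11.33 and 11.27 at ZT12, a difference of 0.96 ± 0.10 with very little spread within either group. Cdkn1a, which encodes the cell cycle inhibitor p21, read 8.28, 8.57 and 9.06 at ZT6 and 9.87, 10.02 and 9.90 at ZT12, a difference of 1.29 ± 0.20. Its ZT6 mean of 8.64 lay under the filter's limit. Cebpd, a C/EBP transcription factor, gave 0.78 ± 0.13 on 1 probe set and 0.06 on the other. Nptx2, a secreted pentraxin induced by activity, read 9.60, 9.76 and 10.35 at ZT6 and 11.41, 12.00 and 11.28 at ZT12, a difference of 1.66 ± 0.26. Its second probe set gave 0.21 and did not pass.

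**Figure D2:**
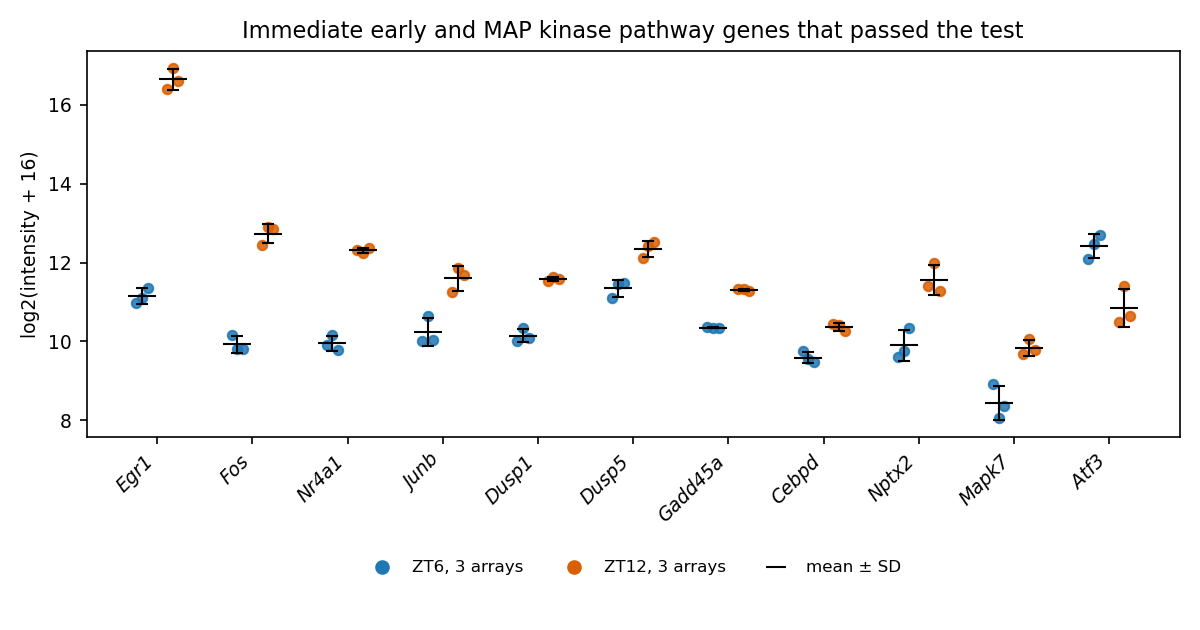
Points are single arrays, 3 at ZT6 (blue) and 3 at ZT12 (orange), for the genes of the immediate early and MAP kinase lists that passed, with log2(intensity + 16) on the y axis and black bars for mean ± SD. Egr1 rises from between 10.97 and 11.36 to between 16.41 and 16.93, the other genes rise by less, and Atf3 alone is lower at ZT12.

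The stretches upstream of 3 of the genes that rose are shown for the response elements they hold. The CArG box is the site of serum response factor and TGACGTCA is the full cyclic AMP response element. Both were searched on both strands in the 250 bases before the annotated start in the RefSeq promoter table of build GRCr8, and matches are in capitals. Egr1 and Dusp5 each held 2 CArG boxes, and Dusp1 held 1 TGACGTCA. They were the only matches among the 27 higher genes that had an entry, and Junb and Nr4a1 held neither motif. Of 31 lower genes with an entry, 1 held TGACGTCA (Taf10) and 0 held a CArG box. Over all 33469 entries, 1.5% held a CArG box and 1.59% held TGACGTCA. A match describes the sequence and is not a measured binding site.
Egr1 (chr18:26736828-26737077, plus strand): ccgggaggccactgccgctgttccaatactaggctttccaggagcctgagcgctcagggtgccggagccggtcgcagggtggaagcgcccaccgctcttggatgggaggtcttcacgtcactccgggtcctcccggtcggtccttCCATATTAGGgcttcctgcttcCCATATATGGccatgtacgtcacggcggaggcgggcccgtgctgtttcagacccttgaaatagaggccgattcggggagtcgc
Dusp5 (chr1:262543524-262543773, plus strand): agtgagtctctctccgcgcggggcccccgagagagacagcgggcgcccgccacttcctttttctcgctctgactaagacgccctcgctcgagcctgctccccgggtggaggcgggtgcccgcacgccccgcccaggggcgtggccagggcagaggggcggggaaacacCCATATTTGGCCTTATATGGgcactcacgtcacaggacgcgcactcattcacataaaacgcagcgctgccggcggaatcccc
Dusp1 (chr10:17184603-17184852, plus strand): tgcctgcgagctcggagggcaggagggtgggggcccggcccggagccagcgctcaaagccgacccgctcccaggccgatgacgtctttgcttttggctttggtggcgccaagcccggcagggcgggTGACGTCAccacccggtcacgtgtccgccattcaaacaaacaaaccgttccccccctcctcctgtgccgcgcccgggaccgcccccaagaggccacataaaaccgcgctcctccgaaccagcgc

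The lower genes were led by members of the amino acid list. Of 14 measured genes of amino acid transport, tRNA charging and related stress signalling, 6 passed as lower at ZT12 and 0 as higher, against 2.09% of all named genes in both directions. The 6 were Trib3, Slc7a1, Asns, Slc7a5, Tars1 and Ddit3. The list's median difference over its brightest probe sets was -0.60, against -0.03 over all genes. Its mean level was 12.77, 12.81 and 12.81 on the ZT6 arrays and 11.89, 11.87 and 11.84 on the ZT12 arrays. The arrays of each hour thus lay close together and far from those of the other. This list too was written with earlier results of these data known, so its count, median and levels are a description. Atf3, Eif4ebp1 and Gdf15, which are known ATF4 or stress response targets outside this list, were lower as well and are described with it. They were picked from the genes that passed as lower, and no full set of stress response targets was counted. Gadd45a, a stress-inducible gene described above, passed as higher, at 0.96. Atf4 and Chac1 have no probe set in the annotation used.

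Trib3, a pseudokinase induced by amino acid shortage, read 11.92, 11.87 and 12.12 at ZT6 and 9.36, 9.02 and 9.26 at ZT12. It fell by 2.76 ± 0.14 on the log2 scale, 6.76-fold with a 95% interval of 5.38 to 8.50 (limma, adjusted p = 0.000362). Asns, which makes asparagine, read 12.68, 12.84 and 12.64 at ZT6 and 10.26, 10.21 and 10.38 at ZT12. It fell by 2.44 ± 0.12, or 5.41-fold (4.47 to 6.55, limma adjusted p = 0.000341). For both genes the arrays of an hour lay close together, with SDs of 0.09 to 0.17.

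The amino acid transporters fell with them. Slc7a5, the light chain of the large neutral amino acid exchanger, read 14.01, 13.93 and 14.23 at ZT6 and 11.70, 12.08 and 12.19 at ZT12, and it fell by 2.07 ± 0.17 (limma adjusted p = 0.00283). Slc7a1, the cationic amino acid transporter CAT1, read 10.90, 11.01 and 10.99 at ZT6 and 8.98, 8.48 and 8.05 at ZT12. It fell by 2.46 ± 0.23 (limma adjusted p = 0.00539), and its other probe sets, at -3.70 and -1.03, also passed. The ZT12 levels of Slc7a1 lay near or under the filter's limit, so that the size of its decrease is less certain than its direction. Slc3a2, the heavy chain that pairs with Slc7a5, gave -0.66 and did not pass, with an adjusted p of 0.0672. The other amino acid transporter genes named here did not pass either, and of them Slc1a2 was about as low as Slc3a2. The glutamate transporters Slc1a3, Slc1a1 and Slc1a2 gave 0.07, 0.24 and -0.69, the taurine transporter Slc6a6 gave 0.25, and Slc3a1, a heavy chain related to Slc3a2, gave 0.70 (adjusted p = 0.108).

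Tars1, the threonyl-tRNA synthetase and the 1 tRNA synthetase of the list that was tested, read 13.63, 13.92 and 14.03 at ZT6 and 12.19, 12.20 and 12.09 at ZT12. It fell by 1.70 ± 0.14 (limma adjusted p = 0.00283). Among the transcription factors, Ddit3, also called CHOP, read 12.78, 12.97 and 13.04 at ZT6 and 11.86, 11.62 and 11.74 at ZT12, and it fell by 1.19 ± 0.13. Atf3, a stress-inducible repressor that is also on the immediate early list, read 12.10, 12.48 and 12.69 at ZT6 and 10.49, 11.40 and 10.65 at ZT12. It fell by 1.58 ± 0.27 (limma adjusted p = 0.0475), opposite in direction to the 8 early genes that rose. Eif4ebp1, a repressor of cap-dependent translation, fell by 1.52 ± 0.15 on 1 probe set, and its others gave -0.94 and -1.37 without passing. Gdf15, a secreted stress cytokine, fell by 1.47 ± 0.24 (limma adjusted p = 0.0396).

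**Figure D3:**
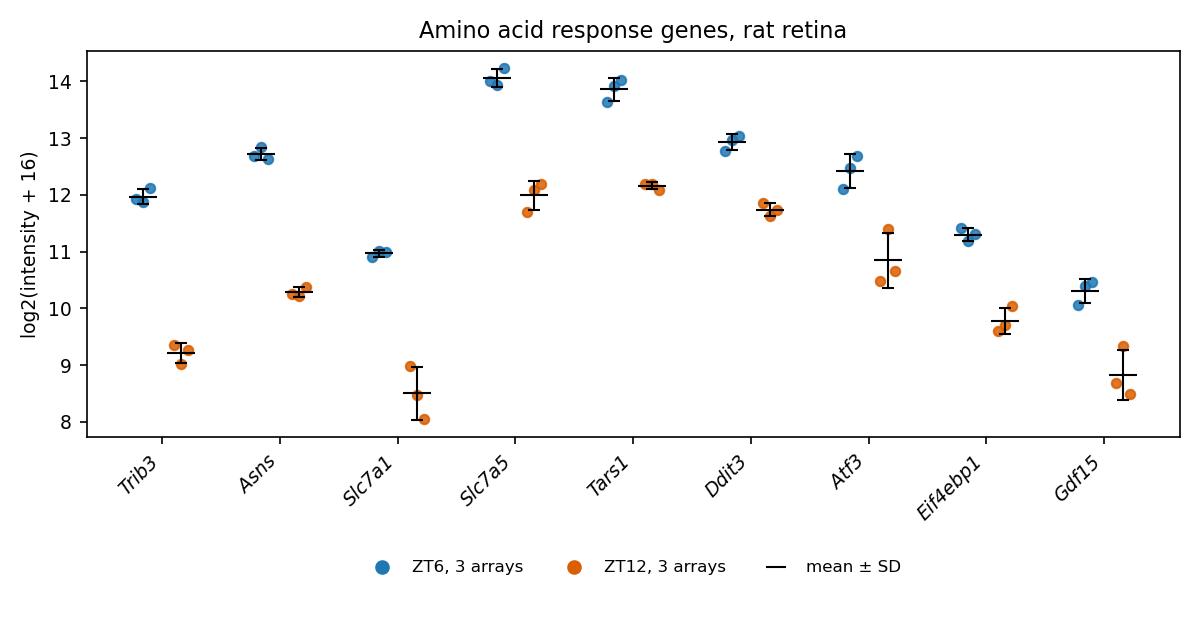
Points are single arrays, 3 at ZT6 (blue) and 3 at ZT12 (orange), with log2(intensity + 16) on the y axis and black bars for mean ± SD. The genes were chosen among those that passed as lower, so each is lower on all 3 ZT12 arrays, from Trib3 at -2.76 to Ddit3 at -1.19. They are 6 of the 14 measured list genes, with Atf3, Eif4ebp1 and Gdf15 from outside the list. Of the 14, 4 had a positive difference on their brightest probe set.

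Upstream sequences are given for the 3 lower genes that held TGATGNAA, the core of the composite C/EBP-ATF site known from amino acid response genes. It was searched on both strands in the same 250 bases, and matches are in capitals. Of 31 lower genes with an entry, 3 held it, as did 3.4% of all 33469 entries. None of the 27 higher genes with an entry held it. The match ended 23 bases before the start in Slc7a1, 14 in Trib3 and 20 in Tars1. Asns, Slc7a5 and Ddit3 had no match in this window, which says nothing about sites elsewhere.
Trib3 (chr3:161275534-161275783, minus strand): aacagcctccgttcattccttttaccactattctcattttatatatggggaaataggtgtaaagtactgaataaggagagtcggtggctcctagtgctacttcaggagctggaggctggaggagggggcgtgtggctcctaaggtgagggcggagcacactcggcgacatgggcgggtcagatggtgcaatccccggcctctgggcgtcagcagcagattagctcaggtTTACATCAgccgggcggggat
Slc7a1 (chr12:11664238-11664487, plus strand): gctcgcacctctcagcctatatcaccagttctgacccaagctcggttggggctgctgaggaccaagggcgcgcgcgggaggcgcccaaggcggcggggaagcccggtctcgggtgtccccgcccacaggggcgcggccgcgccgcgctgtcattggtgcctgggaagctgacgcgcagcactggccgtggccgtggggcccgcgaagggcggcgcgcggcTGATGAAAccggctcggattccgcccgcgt
Tars1 (chr2:62114803-62115052, minus strand): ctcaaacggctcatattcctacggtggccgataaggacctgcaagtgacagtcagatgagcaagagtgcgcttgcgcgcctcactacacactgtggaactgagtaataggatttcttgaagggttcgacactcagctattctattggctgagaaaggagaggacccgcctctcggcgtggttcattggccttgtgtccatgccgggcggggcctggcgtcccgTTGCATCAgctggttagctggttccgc

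Of 14 measured rod photoreceptor genes, 2 passed as lower and 0 as higher, and 3 had a positive difference on their brightest probe set. Over all named genes 2.09% passed and 44.8% were positive. The rod median was -0.22. In whole tissue, fewer cells of a type and less RNA per cell cannot be told apart. Gnb1, the beta subunit of rod transducin that other cells also express, read 12.94, 13.12 and 13.39 at ZT6 and 11.59, 11.68 and 12.30 at ZT12 and fell by 1.29 ± 0.22. Another Gnb1 probe set passed at -1.32, but the brightest gave -0.53 with an adjusted p of 0.151. Gucy2d, a membrane guanylate cyclase, read 10.51, 10.93 and 10.54 at ZT6 and 9.82, 9.55 and 9.73 at ZT12 and fell by 0.96 ± 0.15. Grk1, the rhodopsin kinase, gave -0.76 (adjusted p = 0.0644) and Pde6d, which carries prenylated photoreceptor proteins, gave -0.71 (adjusted p = 0.0801). Other abundant rod genes differed less, with Rom1 at -0.19, Unc119 at -0.17 and Prph2 at -0.12. Cngb1, a channel subunit, gave 0.61, and neither it nor the other rod genes passed.

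Pax4, a homeobox transcription factor best known from the endocrine pancreas, was among the brighter transcripts that fell. It read 14.15, 14.57 and 14.24 at ZT6 and 13.04, 12.98 and 12.74 at ZT12, and it fell by 1.40 ± 0.16 (limma adjusted p = 0.0105). All 3 Pax4 probe sets passed, the others at -0.91 and -1.22.

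Drd4, the D4 dopamine receptor of photoreceptors, changed in the opposite direction. It read 13.28, 13.78 and 13.76 at ZT6 and 14.67, 14.65 and 14.59 at ZT12, an increase of 1.03 ± 0.16 (limma adjusted p = 0.0375). It was the 1 gene to pass among 15 measured genes of melatonin and dopamine signalling, 6.67% of them against 2.09% of all named genes. Drd1 gave 0.48, Drd2 gave 0.08, Drd3 gave 0.09 and Drd5 gave -0.21. Th, the rate-limiting enzyme of dopamine synthesis, gave -0.27 ± 0.16, and Maoa, which degrades dopamine, gave 0.31 ± 0.12. Adra1b, an adrenergic receptor, gave 0.69 (adjusted p = 0.128). Asmt, the last enzyme of melatonin synthesis, was near the filter's limit with levels of 8.89 to 9.42 and a difference of -0.13.

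None of 8 measured core clock genes passed limma's adjusted threshold, while 3 had an unadjusted p under 0.05 and 2 passed with a trended robust prior. Of all 3156 named genes, 66 passed the adjusted threshold (2.09%), 710 had an unadjusted p under 0.05 and 124 passed with that prior. Per2, a clock repressor, read 9.20, 9.16 and 9.17 at ZT6 and 9.81, 9.81 and 9.65 at ZT12. Its arrays separated by hour with little spread, and the difference of 0.58 ± 0.11 had an adjusted p of 0.0562. Rorb, a nuclear receptor abundant in retina, read 10.55, 11.23 and 11.09 at ZT6 and 11.92, 12.52 and 12.11 at ZT12, a difference of 1.23 ± 0.23 with an adjusted p of 0.0572. Bhlhe41, a repressor also called DEC2, gave -0.53 (adjusted p = 0.117). Bmal1, the positive arm of the clock, gave -0.33 and -0.43 on its 2 probe sets, with overlap between the hours. Nr1d1 gave 0.22 and Nr1d2 gave -0.14. Among 8 clock output genes Cdkn1a passed, which is 12.5% of them against 2.09% of all named genes. The next were Cirbp, a cold-inducible RNA-binding protein, at -0.99 (adjusted p = 0.128) and Hlf at -0.59 (adjusted p = 0.197). Dbp, a PAR bZIP factor with a strong rhythm in many tissues, gave -0.17 and -0.12.

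The other genes among the 12 with the largest increases had no shared list. Slc25a30, a mitochondrial carrier, read 9.68, 9.17 and 9.22 at ZT6 and 11.08, 11.69 and 11.25 at ZT12, a difference of 1.99 ± 0.21 (limma adjusted p = 0.00919). Pla2g1b, a secreted phospholipase A2, read 9.35, 9.20 and 9.32 at ZT6 and 10.86, 10.74 and 10.93 at ZT12, a difference of 1.55 ± 0.11 (limma adjusted p = 0.00186). For both genes every ZT12 array lay above every ZT6 array, but no passed probe set overlapped, nor did 25.5% of all tested. Gm2a, the activator protein for ganglioside breakdown, gave 1.43 ± 0.22. Slc25a10, the mitochondrial dicarboxylate carrier, gave 1.96 ± 0.30 on 1 probe set, but its other probe sets gave 0.04 and -0.09, so the gene cannot be called higher as a whole.

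Among the 12 largest decreases, Kcnmb1, a subunit of the calcium-activated BK channel, gave -1.74 ± 0.16 (limma adjusted p = 0.00539) on 1 probe set and -0.14 on the other. Its ZT12 mean of 8.04 lay under the filter's limit. Scly, the selenocysteine lyase, gave -1.27 ± 0.15. Below these, Limk2, a kinase that acts on the actin-severing protein cofilin, read 12.82, 13.16 and 12.90 at ZT6 and 11.93, 11.62 and 11.78 at ZT12 and fell by 1.18 ± 0.14. Of 25 measured genes of the fatty acid and carnitine list, 1 passed in each direction, against 2.09% of all named genes. Cpt1a, which brings long-chain fatty acids to mitochondria, fell by 0.73 ± 0.12, and Crot, the peroxisomal carnitine octanoyltransferase, rose by 0.90 ± 0.11. Outside that list Decr2, a peroxisomal enzyme of fatty acid oxidation, passed at -0.77 on 1 probe set, with 0.04 on the other. P4ha1, a collagen prolyl hydroxylase induced by low oxygen, rose by 1.01 ± 0.15 and was the 1 of 11 hypoxia genes to pass. Hs6st1, a heparan sulfate sulfotransferase, rose by 1.07 ± 0.17 and was the 1 of 28 matrix genes to pass. A single call is 9.09% of 11 genes and 3.57% of 28, against 2.09% over all genes.

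Of the 24 genes with the 12 largest changes in each direction, 10 passed in all 6 fits that left out 1 array. These were Egr1, Fos, Nr4a1, Pla2g1b and Dusp1 among the higher genes and Trib3, Slc7a1, Asns, Slc7a5 and Tars1 among the lower ones. Kcnmb1 was above the filter in 3 such fits, through its ZT6 level, and passed in those. Slc25a30 passed in 5 of 6, Eif4ebp1 and Pax4 in 4, and Nptx2 in 0. Each of Gm2a, Mapk7, Junb, Cdkn1a, Atf3, Gdf15, Gnb1 and Scly passed in 1 of 6, and Slc25a10 in 1 of the 3 fits in which it was above the filter. Outside these 24, Gadd45a passed in 4 of 6, Ddit3 and Limk2 in 3, and Drd4, P4ha1 and Hs6st1 in 1. Dusp5, Cebpd, Gucy2d, Cpt1a, Crot, Cox8b and Ndufs8 passed in 0 of 6.

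Of 34 gene lists, 13 had a passed member and 21 had none. No member passed among the cone, bipolar and horizontal cell, amacrine, ganglion cell, Muller glia, pigment epithelium, lens, blood, immune and vascular lists. Among the lens genes, 12 of 13 had a positive difference and the median was 1.17, the largest of all lists, but 0 had an unadjusted p under 0.05 and 0 passed with a trended robust prior. Crybb2, a lens beta crystallin, read 17.55, 12.86 and 17.40 at ZT6 and 17.91, 17.29 and 17.55 at ZT12. Its low value was that of ZT6 array 2, and the other arrays lay close together. All 6 blood genes had a negative difference, with a median of -0.45, and 3 had an unadjusted p under 0.05. Over all 3156 named genes, 44.8% were positive and 710 had an unadjusted p under 0.05. Hbb gave -0.80 with an adjusted p of 0.151. Of 28 matrix genes, 23 had a positive difference and their median was 0.33, and ZT6 array 2 was the lowest here too, with a mean level of 10.54 against 10.95 to 11.29 on the others. The part of lens and matrix tissue in any difference was not tested beyond a fit with the lens level as a covariate, in which 32 probe sets passed, 29 of them among the 87.

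Among large housekeeping groups, counts are set against 2.09% called and 44.8% positive over all named genes. Of all 3156 named genes, 710 had an unadjusted p under 0.05, 306 with a higher and 408 with a lower probe set. With a trended robust prior, 124 of them passed. Of 42 cytosolic ribosomal protein genes 0 passed limma's adjusted threshold, 11 had an unadjusted p under 0.05, all lower, and 2 passed with a trended robust prior. Their median was -0.14 and 10 were positive. Rps16, with the smallest p of them, gave -0.56 (adjusted p = 0.0644). Of 54 oxidative phosphorylation genes, 1 passed as higher (Cox8b, at 0.77) and 1 as lower (Ndufs8, at -0.92, whose 3 probe sets did not share a sign). Of 20 glycolysis genes 0 passed and 7 had an unadjusted p under 0.05, all higher. The synaptic vesicle, neurotransmitter receptor and ion channel lists, with 28, 35 and 35 genes, had no passed member and medians of 0.02, 0.04 and 0.03.

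**Figure D4:**
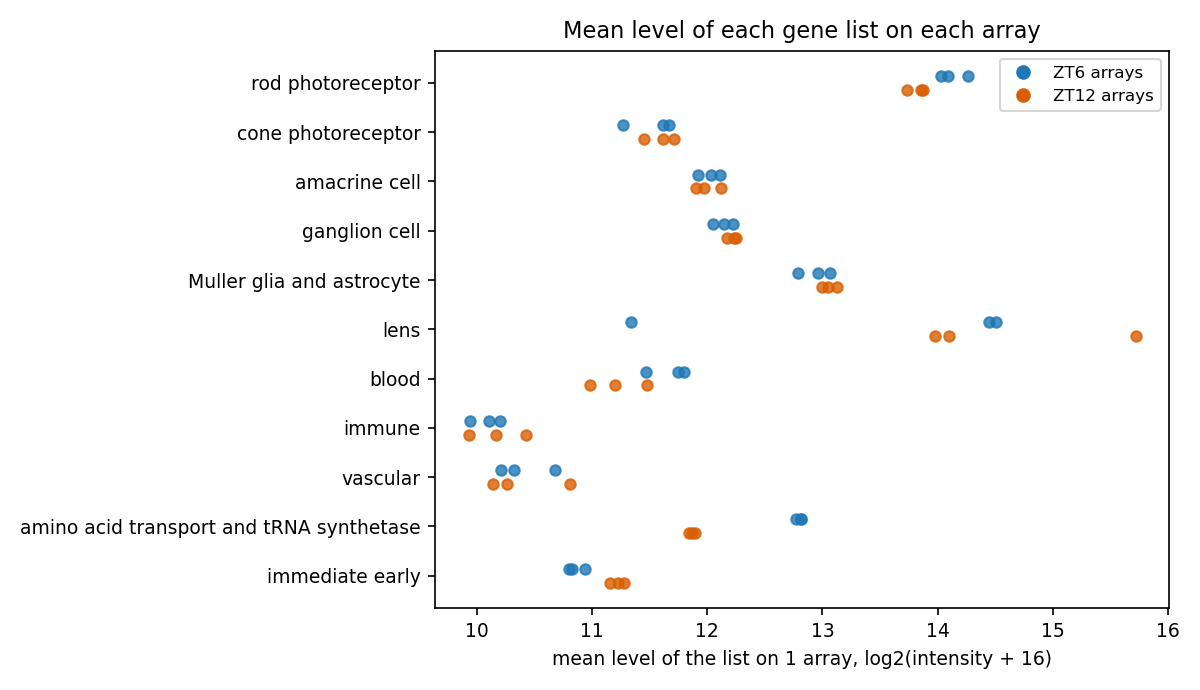
Each point is the mean level of 1 gene list on 1 array, in log2(intensity + 16), over the brightest probe set of each gene, with ZT6 arrays in blue and ZT12 arrays in orange. The amino acid list separates the hours (12.77 to 12.81 against 11.84 to 11.89), while the lens list spreads from 11.34 to 15.72 across arrays of either hour. All lists were written with earlier results of these data known.

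The same hours were also sampled in circadian time (CT), which conventionally counts hours of the internal clock without a light-dark cycle, with 3 retina arrays each at CT6 and CT12. They share no array with the ZT groups. Levels in the next paragraphs come from quantile normalization of all 12 retina arrays together and so differ slightly from those above. CT12 array 1 stood apart from the ZT arrays, with Spearman correlations of 0.814 to 0.855, and the main results are given with and without it. Its mean of the 14 rod genes was 10.98, against 13.61 and 14.09 on CT12 arrays 2 and 3. The mean of the 13 lens genes was 16.96, 16.72 and 15.17 on CT12 arrays 1 to 3, against 14.61, 14.99 and 11.14 at CT6. CT differences with all arrays therefore include this uneven tissue content, whose part in them was not tested.

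Of the 87 probe sets, 55 had the same sign of the hour difference under CT, against 51.4% of all tested probe sets. Of the 45 higher ones, 20 (44.4%) were also higher at CT12, against 44.8% of all tested. Of the 42 lower ones, 35 (83.3%) were also lower at CT12, against 55.2% of all tested. Without CT12 array 1 the shares were 68.9% of the higher against 44.5%, and 73.8% of the lower against 55.5%. In a limma fit of the 12 arrays, the hour effect differed between ZT and CT for 1 of 5244 probe sets at an adjusted p under 0.05 (0.0191%), the Nptx2 probe set S82649_r_at, and for 841 at an unadjusted p under 0.05. For the other probe sets a difference between the time scales was not shown. Without CT12 array 3, the count was 63, and it was 1 to 4 without any other single array.

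Nptx2 on this probe set read 11.79, 11.74 and 11.39 at CT6 and 9.70, 9.33 and 8.96 at CT12, so it was lower at the later hour under CT and higher under ZT. The difference between both effects was 3.95 ± 0.38 (limma adjusted p = 0.00397), and 4.15 ± 0.36 without CT12 array 1. Cdkn1a had a like profile, at 9.02, 9.88 and 9.94 at CT6 and 8.46, 8.01 and 8.57 at CT12, but its difference of effects, 2.54 ± 0.39, had an adjusted p of 0.0765.

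Egr1, on the probe set given first above, read 12.80, 12.74 and 10.80 at CT6 and 12.38, 14.78 and 15.09 at CT12. Its arrays overlapped under CT because of CT12 array 1, and the hour difference was 1.97, or 2.82 without that array. The difference of 3.70 ± 0.97 from the ZT effect had an adjusted p of 0.204. The other Egr1 probe sets had hour differences of 1.96, 0.36 and 1.54 under CT, and the last did not overlap between the hours. Fos, on the probe set given above, read 10.05, 10.07 and 10.54 at CT6 and 8.76, 11.18 and 11.26 at CT12. Its hour difference was 0.18, or 1.00 without CT12 array 1. The other Fos probe sets gave 0.87 and 0.61 under CT with all arrays, the latter without overlap between the hours.

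The amino acid genes split the CT6 arrays. Asns read 10.07, 9.97 and 12.48 at CT6 and 9.30, 9.94 and 10.51 at CT12. CT6 array 3 thus lay at the level of the ZT6 arrays (12.60 to 12.81) and CT6 arrays 1 and 2 at that of the ZT12 arrays (10.20 to 10.36). Trib3 read 9.35, 9.25 and 12.02 at CT6, and Tars1 read 11.97, 12.25 and 13.68, with the same array high. The mean of the 14 genes was 11.80, 11.93 and 12.85 at CT6 and 10.78, 11.64 and 11.84 at CT12, and 10 of the 14 were highest on CT6 array 3 of the CT6 arrays. Over the 42 lower probe sets this was so for 32 (76.2%), over the 45 higher ones for 10 (22.2%) and over all tested for 42.5%. CT6 array 3 also had the lowest lens level of the 12 arrays, 11.14, followed by ZT6 array 2 with 11.32, while ZT6 arrays 1 and 3 had high amino acid levels at lens levels of 14.53 and 14.57. The part of tissue content in these levels was not tested.

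**Figure D5:**
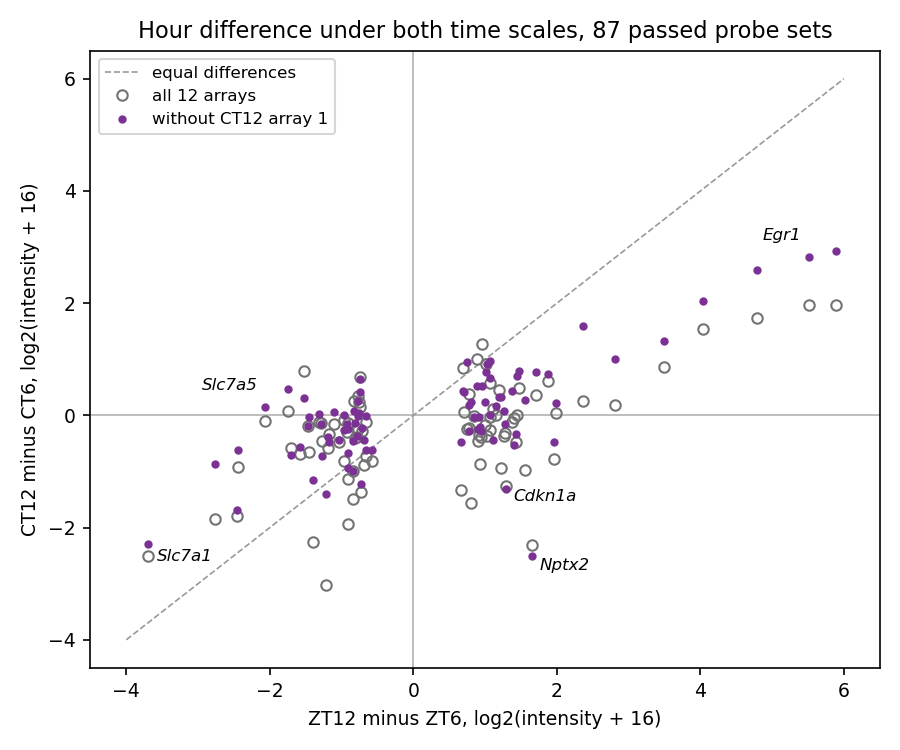
Each of the 87 probe sets is placed by its ZT12 minus ZT6 difference (x axis) and its CT12 minus CT6 difference (y axis), both in log2(intensity + 16), with open circles for all 12 arrays and filled points without CT12 array 1. The x values come from the 6 ZT arrays normalized alone and the y values from the 12 retina arrays normalized together. The probe sets were chosen by their x values. Egr1 is positive on both (5.51 and 2.82), and Nptx2 lies at 1.66 and -2.50.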

How the data were processed

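The deposited values were Affymetrix intensities on a linear scale, one column per array, made by the authors before deposit. How they were summarized, background-corrected and scaled is not given in the sources. No detection calls were used. Probe set symbols came from GEO's platform annotation: of 8740 non-control probe sets, 7006 had 1 symbol, 308 several and 1426 none, giving 4736 genes.

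The 6 arrays were quantile normalized alone, transformed as log2 of the intensity plus 16, and kept at a mean at or above the 40th percentile (8.90), which left 5244 probe sets. The test was limma's moderated two-sided one (version 3.58.1, R 4.3.3), with 4 residual and 2.81 prior degrees of freedom and Benjamini-Hochberg adjustment over all 5244. Tables were handled in Python 3.11.15. An exact permutation test of 3 against 3 arrays cannot go below 0.1, so none was used. For single genes the probe set with the smallest p was taken, and for list medians the brightest. The text names the 12 higher and 12 lower genes with the largest changes among those that passed without overlap, members of the early, clock and dopamine lists, and up to 4 members with the smallest p of other lists. Slc3a2, Slc3a1, Slc1a1, Slc1a2, Slc1a3, Slc6a6, Map2k1, Prph2, Pdc, Rom1, Unc119, Cngb1 and Decr2 were named after their values were seen. The members, the 34 lists and the rule were chosen with earlier results of these data known.

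Arrays give no counting depth, and their number limits the precision. On simulated data with the spread of these 6 arrays and 5244 probe sets, changes were put only into probe sets brighter than the filter's limit. The test found 82 of 100 with a 2-fold change and 88 of 100 with a 4-fold change, and made 9 false calls. It made 0 calls when no change was put in. These shares do not cover dimmer probe sets. In the data, 131 probe sets differed at least 2-fold and 50 of these passed. Alternatives covered the offset (1 and 64), the normalization (a common median, or none), the filter (none, or the 60th percentile), array weights, a trended robust prior, a replicate block, a fit of the 12 retina arrays, omission of arrays and the lens level as a covariate. Pineal arrays were not used.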

Additional observations from a re-analysis of the deposited data

Results flagged for a closer look

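The hour effect on the Nptx2 probe set S82649_r_at differed between the ZT and CT arrays by 3.95 log2 units in the limma fit of 12 arrays (adjusted p = 0.00397). With the 12 arrays normalized together, it rose by 1.63 from ZT6 to ZT12 and differed by -2.31 from CT6 to CT12. The difference between the effects passed in that fit without any single array, with adjusted p of 0.00261 to 0.0274. Its ZT rise in the 6 arrays, however, passed in 0 of 6 fits that left out 1 array. The other Nptx2 probe set, S82649_s_at, rose by only 0.21 from ZT6 to ZT12 in the 6 arrays and did not pass. With 3 arrays a group, no test for an outlying value within a group was run.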

How the results depend on the processing

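No passed probe set changed its sign under any alternative in which it was measured. Since the hours did not overlap for any of them, omitting arrays could hardly reverse a sign, so this is no evidence of stability. The main analysis gave 87 probe sets, 24 of the genes with the largest changes and 29 list genes. Without a filter these were 26, 12 and 9, and at the 60th percentile 145 probe sets passed. A trended robust prior gave 175 probe sets and 47 list genes, and the lens covariate gave 32 and 13. One fit of the 12 retina arrays gave 15 (14 higher, 1 lower), 4 and 7, and omission of both arrays numbered 3 gave 4, 3 and 3. Leaving out 1 array gave 20 to 46 probe sets, 12 to 15 of the genes and 10 to 17 list genes, and for the difference between the ZT and CT effects 1 to 63 probe sets, the 63 without CT12 array 3. Offsets of 1 and 64 gave 84 and 97, the values as deposited 89, array weights 126 and a common median 87. Deviations of same-numbered arrays correlated at 0.077, 0.101 and -0.056, so the numbers were not taken as pairs. With the number as a replicate block, 20 probe sets, 13 of the genes and 10 list genes passed, and 2 probe sets for the difference between the effects. Egr1 passed under all 18 alternatives, and Trib3 and Asns under 17. With 3 arrays in each group, values near the filter's limit of 8.90 had the least certain size.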
